A study of Mus musculus with 13 samples.

Results

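The Runx factors and their cofactors were followed across 3 compartments of common lymphoid progenitors (CLP) of the mouse, cells of the marrow that give rise to lymphocytes. The set was taken by gene name. It holds the Runx genes Runx1, Runx2 and Runx3, their DNA-binding partner Cbfb, and the ETO family genes Cbfa2t2 and Cbfa2t3. All 6 genes were found among the 24072 RefSeq identifiers of the count files, and all 6 passed the filter on low counts, which kept 12722 genes. The set was chosen by the measured fall of Runx2 in Ly6D+Gfra2+ cells, so the Runx2 values of that compartment are given as a description with no test.

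All cells came from the bone marrow of wild-type C57BL/6 mice, and no treatment, time or age is given in the labels. They were sorted by flow cytometry on the surface proteins Ly6D and Gfra2, which gave 6 libraries without either protein (Ly6D-Gfra2-), 4 with Ly6D alone (Ly6D+Gfra2-) and 3 with both (Ly6D+Gfra2+). Ly6D marks lymphoid progenitors that turn toward B cells, and Gfra2 binds the growth factor neurturin. The bracketed code in each title begins with P or T, and the labels do not explain these letters. Codes with prefix T also carry a tag of S and a number, shared across compartments and used here as the replicate number. This tag is not explained either. Prefix P covers Ly6D-Gfra2- replicates 1 to 3 together with replicates 1 and 2 of Ly6D+Gfra2-, and every other library, all of Ly6D+Gfra2+ included, has prefix T. Nothing in the labels ties a replicate to an animal, and the p-values therefore reflect the spread among these libraries, which may be technical.

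Total counts ran from 6892728 to 23705975 per library, and every gene of the set had at least 370 counts in every library. Levels are CPM, counts per 1000000 of the TMM-scaled library size, and ± is the SD over libraries. The CLP markers Il7r, Flt3, Kit, Cd34, Dntt and Rag1 all averaged above 5 CPM in each compartment. The library labelled Ly6D-Gfra2- replicate 3 held Ly6d at 213 CPM, against 0.623 to 8.30 CPM in the other 5 of its group and 158 to 507 CPM in Ly6D+Gfra2-. Results that involve this library are therefore given with and without it. In bulk RNA, fewer cells that express a gene and less RNA per cell cannot be told apart.

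Runx proteins bind DNA through the Runt domain, and core binding factor beta, made by Cbfb, joins them and strengthens the binding. Runx1 is needed for blood stem cells to form and for lymphoid development, Runx2 is best known for bone formation and also acts in plasmacytoid dendritic cells, and Runx3 acts in T, NK and innate lymphoid cells. Cbfa2t2 and Cbfa2t3 make corepressors of the family named after ETO, the protein that is fused to RUNX1 in a form of acute myeloid leukaemia. Cbfa2t3 sits in complexes with Tal1, Lyl1, Ldb1 and E proteins in blood progenitors.

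On assembly GRCm38.p6, Runx1 (counted as NM_001111023) spans chr16:92601466-92826074, Runx2 (NM_001145920) chr17:44495987-44814797 and Runx3 (NM_019732) chr4:135120645-135177990. Cbfb (NM_001161458) spans chr8:105170674-105217989, Cbfa2t2 (NM_009823) chr2:154436098-154539356 and Cbfa2t3 (NM_009824) chr8:122625136-122699332.

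The 3 Runx genes shared a sequence in a window around a start site, and the windows of the other genes of the set lacked it. The stretches below are shown because they hold Runx recognition letters inside the Runx genes themselves. They come from the RefSeq promoter windows of assembly GRCm38.p6, which run from 250 bases before to 50 bases after a start site. Each is read 5′ to 3′ on the strand of its gene, and the capitals mark 16 bases that hold the Runx motif TGTGGT 2 times in tandem on the opposite strand.
Runx1: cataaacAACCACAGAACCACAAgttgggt
Runx2: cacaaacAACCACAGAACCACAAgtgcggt
Runx3: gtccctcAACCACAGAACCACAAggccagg
The Runx1 stretch is chr16:92826025-92826054 on the minus strand, 21 to 50 bases after the start site of its window. The Runx2 stretch is chr17:44814583-44814612 on the minus strand, 16 to 45 bases after the start site of its window. That window, chr17:44814578-44814877, crosses the upstream end of the span given above for the gene. Its start site lies inside the span, near that end. The Runx3 stretch is chr4:135120503-135120532 on the plus strand, from 142 to 113 bases before the start site of its window.

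Searched on both strands, the 16 bases in capitals occurred in 4 of 32851 windows of 300 bases (0.0122%), and the genes were Runx1, Runx2, Runx3 and Gm16225, a noncoding gene that lies next to Runx3. The single motif TGTGGT was far more common and was in 16.8% of windows, and its variant TGCGGT was in 6.45%. At least 2 matches of TGTGGT were in 1.81% of windows. The window of Runx2 held 3 matches of TGTGGT and 1 of TGCGGT, and the upstream windows of Runx1 and Runx3 held 2 matches of TGTGGT each. The second windows of Runx1 and Runx3, at internal start sites, held none, nor did the windows of Cbfb and Cbfa2t2. One window of Cbfa2t3 held a single TGCGGT. These matches describe letters in the genome and carry no measurement of binding.

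Runx2 was the gene of the set that differed most between compartments, and its lowest levels were in Ly6D+Gfra2+ cells. In Ly6D+Gfra2+ replicates 4, 5 and 6 it stood at 265, 397 and 381 CPM. In Ly6D+Gfra2- replicates 1, 2, 5 and 6 it stood at 1502, 1812, 1640.5 and 2172 CPM. Every Ly6D+Gfra2- library was thus above every Ly6D+Gfra2+ library. In Ly6D-Gfra2- replicates 1 to 6 the values were 1021, 1373, 2155, 830, 918 and 721 CPM, all above the Ly6D+Gfra2+ libraries too. Separation in the lower direction was seen in 5.71% of all genes for the first pair of compartments and in 6.19% for the second. The highest of them was the Ly6D-Gfra2- library labelled replicate 3, which lay within the range of Ly6D+Gfra2-.

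**Figure D1:**
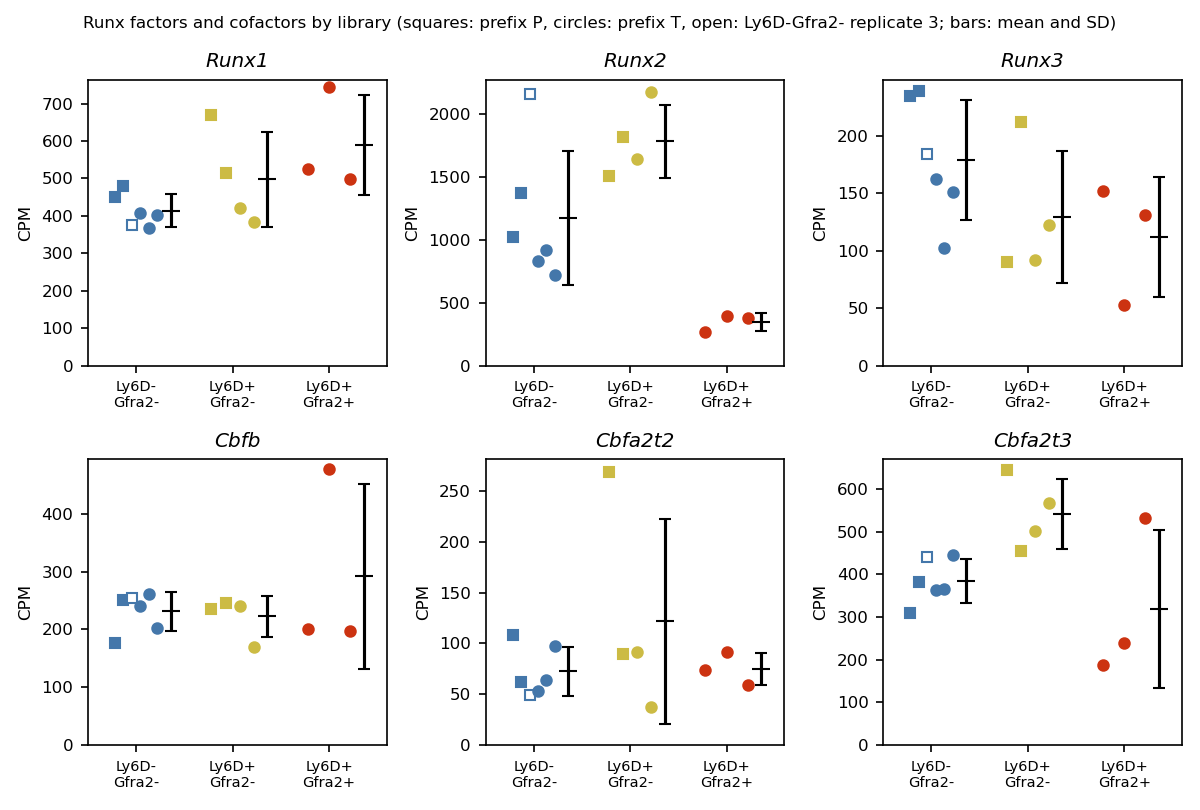
Levels of the 6 genes in each library, in CPM on linear axes, by compartment. Points are libraries (squares prefix P, circles prefix T, the open square the Ly6D-Gfra2- library labelled replicate 3), and bars give the mean and SD. Runx2 is at 265 to 397 CPM in Ly6D+Gfra2+ and at 721 CPM or more in every other library.

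The group means of Runx2 were 1170 ± 532 CPM in Ly6D-Gfra2- (n = 6), 1782 ± 290 CPM in Ly6D+Gfra2- (n = 4) and 347.6 ± 71.6 CPM in Ly6D+Gfra2+ (n = 3). Fitted on the log2 scale, Ly6D+Gfra2+ differed from Ly6D+Gfra2- by -2.17 (SE 0.30), a 4.49-fold difference, and from Ly6D-Gfra2- by -1.48 (SE 0.29), a 2.78-fold difference. Within prefix T alone these differences were -2.46 and -1.25, and with the Ly6D-Gfra2- library labelled replicate 3 left out they were -2.26 and -1.39. Runx2 was chosen for its low level in Ly6D+Gfra2+, so neither difference was tested. Both comparisons use the same 3 Ly6D+Gfra2+ libraries.

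Between the 2 compartments that lack Gfra2, Runx2 was measured higher in Ly6D+Gfra2-, and the difference did not pass the test. The choice of genes did not rest on this comparison. The fall of Runx2 was however measured against these same libraries, so the tests below are not independent of the choice. The log2 difference was 0.69 (SE 0.23), with an edgeR adjusted p of 0.807 and an unadjusted p of 0.00805. The mean of Ly6D-Gfra2- without the library labelled replicate 3 was 973 ± 250 CPM (n = 5), and the remaining groups did not overlap, a separation that 1.37% of all genes showed in that direction. Without that library the difference was 0.88 (SE 0.19), still short of the threshold with an edgeR adjusted p of 0.131. The difference was larger within prefix T, at 1.22 (edgeR adjusted p = 0.162), than within prefix P, at 0.13 (edgeR adjusted p = 0.958). Leaving out the library labelled replicate 3 brought the prefix P difference to 0.47 (edgeR adjusted p = 0.993).

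The summed level of 10 dendritic markers was also highest in Ly6D+Gfra2-, at 517 to 916 CPM. It was 99.4 to 176 CPM in Ly6D+Gfra2+ and 170 to 257 CPM in Ly6D-Gfra2- apart from the Ly6D-Gfra2- library labelled replicate 3, which reached 633 CPM. The sums of Ly6D-Gfra2- and Ly6D+Gfra2+ overlapped through Ly6D-Gfra2- replicate 2 (170 CPM) and Ly6D+Gfra2+ replicate 6 (176 CPM). Within prefix T the Ly6D-Gfra2- sums were 194 to 229 CPM, above all Ly6D+Gfra2+ sums. Siglech, a receptor of plasmacytoid dendritic cells, and Cox6a2, a muscle-type respiratory subunit that these cells also make, carried most of the sum in Ly6D+Gfra2-. Siglech ranged from 230 to 346 CPM there and from 9.10 to 29.6 CPM in Ly6D+Gfra2+. It reached 299.5 CPM in Ly6D-Gfra2- replicate 3 as labelled, against 15.7 to 54.9 CPM in the other 5 of that group. Cox6a2 averaged 81.1, 240.1 and 48.4 CPM in Ly6D-Gfra2-, Ly6D+Gfra2- and Ly6D+Gfra2+. The means in the same order were 20.03, 30.4 and 2.27 CPM for the integrin Itgax, 72.9, 61.5 and 43.5 CPM for the homing receptor Ccr9, and 27.2, 28.1 and 16.2 CPM for Bst2. Ccr9 was therefore not highest in Ly6D+Gfra2-, and Bst2 was nearly equal in the compartments that lack Gfra2. Of the 10 markers, 8 were detected in Ly6D+Gfra2-, where Klk1 and Zbtb46 were at 0, and 8 in Ly6D+Gfra2+, where Klk1 and Clec9a were at 0. All 10 were detected in Ly6D-Gfra2-. The part of dendritic transcripts in the Runx2 levels was not tested.

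**Figure D2:**
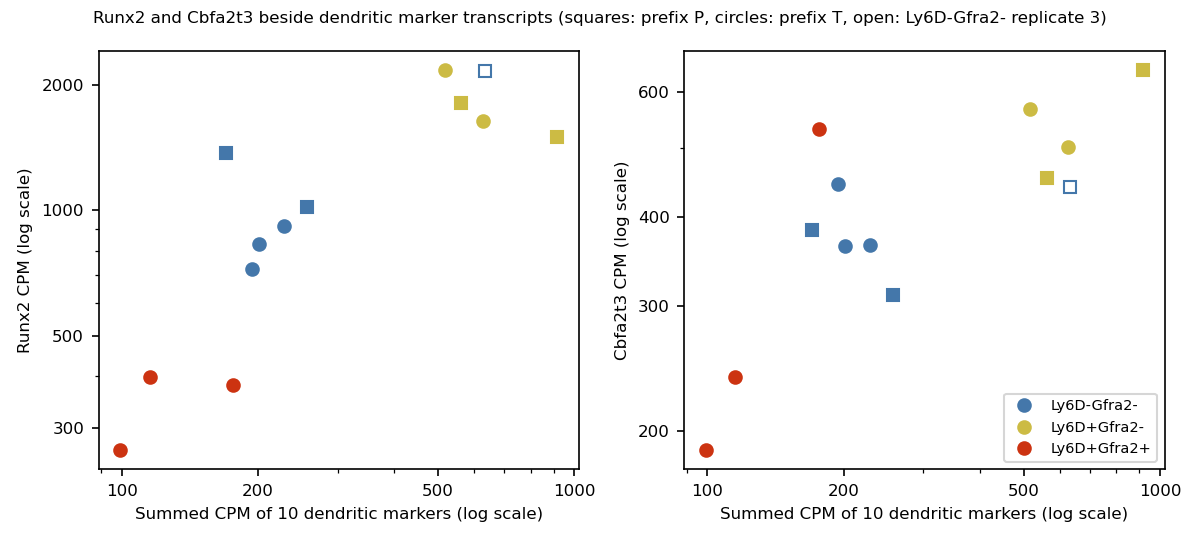
Runx2 (left) and Cbfa2t3 (right) in CPM against the summed CPM of 10 dendritic markers, 1 point per library, on log axes. The 4 Ly6D+Gfra2- libraries and the open square (the Ly6D-Gfra2- library labelled replicate 3) lie at 517 CPM or more of dendritic markers, and the Ly6D+Gfra2+ libraries lie at 176 CPM or less.

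Bone and stromal transcripts, from the other setting in which Runx2 is known, were low in most libraries and high in a few. The osteoblast factor Sp7 and the stromal receptor Pdgfra were at 0 in all 13 libraries, and Col1a1, the main bone collagen, was at 0 in Ly6D+Gfra2- and Ly6D+Gfra2+. The summed level of 12 osteolineage and stromal markers was 188 to 250 CPM in Ly6D-Gfra2-, 226 to 331 CPM in Ly6D+Gfra2- and 198 to 283 CPM in Ly6D+Gfra2+. Most of it was Pecam1, an adhesion molecule that blood cells also make, with means of 204, 243 and 210 CPM. Col1a2, the partner chain of Col1a1, reached 59.7 CPM in Ly6D+Gfra2- replicate 1 and 59.6 CPM in Ly6D+Gfra2+ replicate 6, against 0.248 CPM or less in the other 11 libraries. The stromal chemokine Cxcl12 was at 37.6 CPM in Ly6D+Gfra2+ replicate 6, and the endothelial cadherin Cdh5 reached 30.5 CPM in Ly6D+Gfra2- replicate 5. Their part in the Runx2 levels was not tested. Supt3, a gene that overlaps the 5′ end of Runx2, was at 19.5 ± 13.2 CPM (n = 6), 52.6 ± 50.6 CPM (n = 4) and 21.4 ± 11.6 CPM (n = 3) in the same order of compartments. The strand setting of the counting is not given in the sources used here, so reads of overlapping genes cannot be told apart.

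The 5 genes whose levels ran most like Runx2 over the 13 libraries, among 11093 genes compared, were Strip2, Cttn, Dgke, Fcer1g and Nedd1. Pearson's r of the log2 CPM with Runx2 was 0.963 for Strip2, 0.923 for Cttn, 0.920 for Dgke, 0.915 for Fcer1g and 0.907 for Nedd1. Within prefix T the same values were 0.979, 0.921, 0.957, 0.913 and 0.926. Strip2 and Cttn, which codes for the actin-binding protein cortactin, were at 0 counts in all 3 Ly6D+Gfra2+ libraries. Strip2 was at 27.5 to 60.9 CPM in Ly6D+Gfra2-. The Ly6D-Gfra2- library labelled replicate 3 had 51.6 CPM, against 0.649 to 4.18 CPM in the other Ly6D-Gfra2- libraries. Fcer1g, the common signalling chain of Fc receptors, averaged 62.5, 133 and 13.7 CPM in Ly6D-Gfra2-, Ly6D+Gfra2- and Ly6D+Gfra2+. These correlations rest on libraries that share their groups and describe likeness only.

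Runx1 was highest on average where Runx2 was lowest. Its levels were 450, 480, 376, 409, 367 and 401 CPM in Ly6D-Gfra2- replicates 1 to 6. In Ly6D+Gfra2- they were 669, 515, 422 and 383 CPM in replicates 1, 2, 5 and 6, and in Ly6D+Gfra2+ they were 525, 744 and 499 CPM in replicates 4, 5 and 6. Every Ly6D+Gfra2+ library was above every Ly6D-Gfra2- library, while Ly6D+Gfra2- overlapped both. Of all genes tested, 4.03% were as separate in that direction.

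The means of Runx1 were 414 ± 43.5 CPM (n = 6), 497 ± 127 CPM (n = 4) and 589 ± 135 CPM (n = 3). The log2 difference of Ly6D+Gfra2+ from Ly6D-Gfra2- was 0.67 (SE 0.20), which did not pass the edgeR test (adjusted p = 0.111, unadjusted p = 0.00354). DESeq2 gave the same difference with an adjusted p of 0.0385. With 1 library left out the difference ran from 0.46 to 0.77. Without the Ly6D-Gfra2- library labelled replicate 3 it was 0.64 (edgeR adjusted p = 0.141). The log2 difference was 0.42 (SE 0.22, edgeR adjusted p = 0.416) between Ly6D+Gfra2+ and Ly6D+Gfra2-, and 0.24 (SE 0.17, edgeR adjusted p = 0.999) between Ly6D+Gfra2- and Ly6D-Gfra2-.

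Runx3 varied widely inside each compartment. It stood at 235, 239, 184, 163, 102 and 151 CPM in Ly6D-Gfra2- replicates 1 to 6, at 90.3, 212, 92.0 and 122 CPM in Ly6D+Gfra2- replicates 1, 2, 5 and 6, and at 152, 52.7 and 131 CPM in Ly6D+Gfra2+ replicates 4, 5 and 6. The 3 compartments overlapped. The means were 179 ± 52.3 CPM (n = 6), 129 ± 57.0 CPM (n = 4) and 112 ± 52.1 CPM (n = 3). The log2 differences were -0.45 (SE 0.31) between Ly6D+Gfra2- and Ly6D-Gfra2-, 0.11 (SE 0.39) between Ly6D+Gfra2+ and Ly6D+Gfra2-, and -0.35 (SE 0.37) between Ly6D+Gfra2+ and Ly6D-Gfra2-. The edgeR adjusted p-values were 0.999, 0.941 and 0.730.

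**Figure D3:**
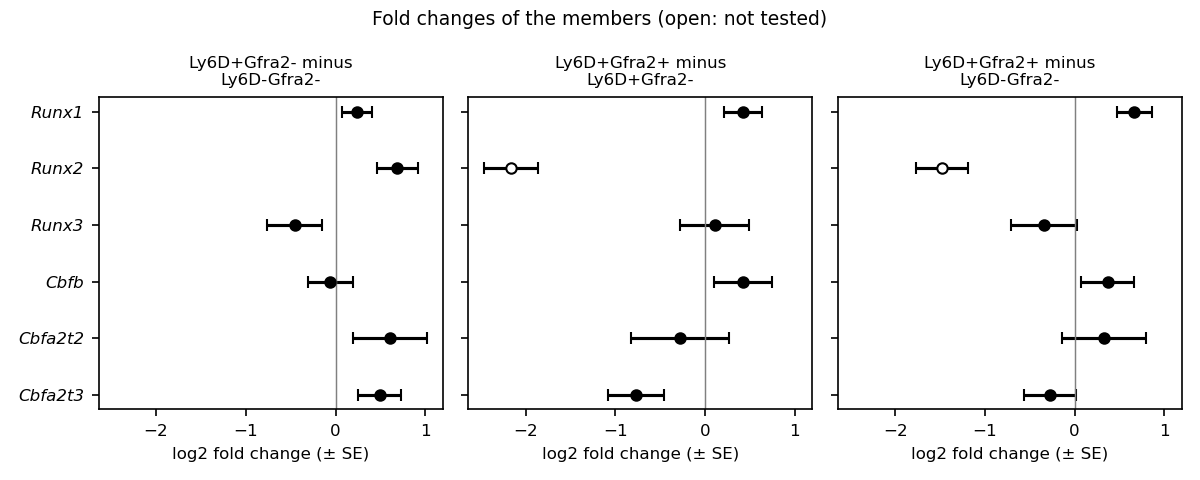
Fitted log2 fold changes of the 6 genes (points) with their SE (bars) in the 3 comparisons, first group minus second. Open points mark Runx2 in the 2 comparisons that the choice of genes used, at -2.17 and -1.48. No filled point passed the edgeR test.

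The balance among the Runx genes was then read within each library, where it does not move with library size. Levels of different genes were compared per kilobase of transcript, as each gene's share of the summed Runx counts per kilobase. The result depends on the length given to Runx1, because the counted identifier, NM_001111023, matches a transcript of 1985 bases while the longest coding transcript has 5861. With the matched lengths the mean shares in Ly6D-Gfra2- were 49.2% Runx1, 40.2% Runx2 and 10.6% Runx3. In Ly6D+Gfra2- they were 44.6%, 49.5% and 5.89%, and in Ly6D+Gfra2+ they were 77.7%, 14.2% and 8.04%. Runx3 had the lowest share in every library, with either set of lengths given here. Runx1 was above Runx2 in every Ly6D+Gfra2+ library, with shares of 73.1% to 83.3% against 11.9% to 17.1%.

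With the longest coding transcripts, a choice added after the data were seen, Runx2 led in the compartments that lack Gfra2, with mean shares of 59.0% in Ly6D-Gfra2- and 69.9% in Ly6D+Gfra2-. In Ly6D+Gfra2+ Runx1 still led, with 54.5% against 29.3% for Runx2. With either length the Ly6D+Gfra2+ libraries had the highest Runx1 shares and the lowest Runx2 shares of the 13 libraries. The Runx2 part of these shares repeats the values that chose the genes and was not tested.

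**Figure D4:**
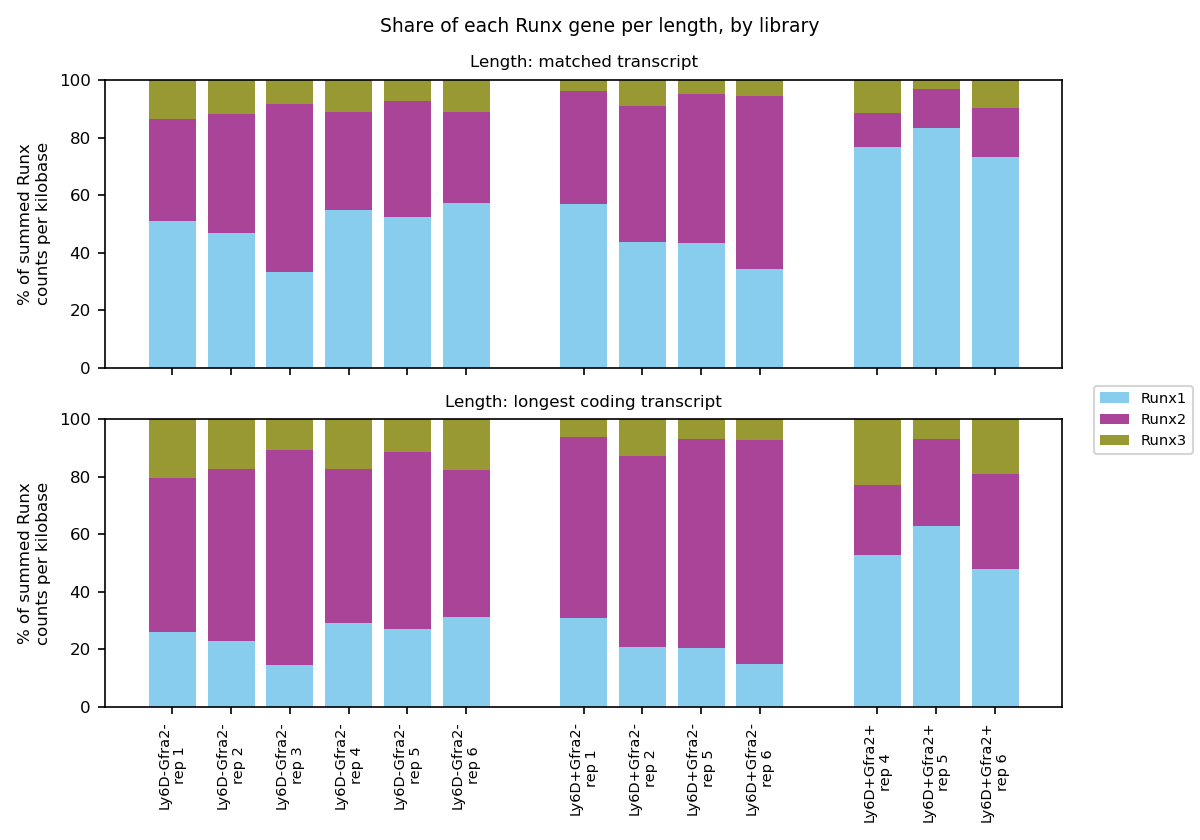
Share of each Runx gene in the summed Runx counts per kilobase, 1 bar per library, with the matched transcript lengths (top) and the longest coding transcripts (bottom). Runx1 holds 73.1% to 83.3% of the Ly6D+Gfra2+ bars at the top and 47.9% to 62.9% at the bottom.

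The ratio of Runx2 to Runx1 counts in a library averaged 1.40 ± 0.59 on the log2 scale in Ly6D-Gfra2- (n = 6), 1.86 ± 0.55 in Ly6D+Gfra2- (n = 4) and -0.76 ± 0.32 in Ly6D+Gfra2+ (n = 3). Of the 13 libraries, the 3 of Ly6D+Gfra2+ had fewer Runx2 than Runx1 counts and the other 10 had more. Between the compartments that lack Gfra2 the log2 ratio differed by 0.46, within the spread between libraries (two-sided exact permutation test within prefix, p = 0.3, adjusted over 3 ratios 0.45). That difference was 1.17 within prefix T and -0.25 within prefix P. Without the Ly6D-Gfra2- library labelled replicate 3 it was 0.65 (exact permutation p = 0.0667, adjusted 0.1). The Runx2 values of these compartments also entered the choice of genes, so this test is not independent of it.

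The ratio of Runx3 to Runx1 was lower in Ly6D+Gfra2-, at -2.00 ± 0.70 (n = 4) on the log2 scale against -1.26 ± 0.34 (n = 6) in Ly6D-Gfra2-. The difference of -0.74 had an exact permutation p of 0.02, which became 0.06 after adjustment over the 3 ratios and did not pass. The smallest p this design allows is 0.01. The difference was -0.39 within prefix T and -1.09 within prefix P, and -0.34 without Ly6D+Gfra2- replicate 1, which held the lowest value of its group, -2.89. In Ly6D+Gfra2+ the ratio was -1.79, -3.82 and -1.93 in replicates 4, 5 and 6.

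Cbfb, the shared partner of all Runx proteins, had close means in the compartments that lack Gfra2, 231 ± 33.6 CPM (n = 6) and 223 ± 35.8 CPM (n = 4). It stood at 177 to 261 CPM in the 6 Ly6D-Gfra2- libraries, with a median of 246 CPM, and at 234, 246, 240 and 169 CPM in Ly6D+Gfra2- replicates 1, 2, 5 and 6. In Ly6D+Gfra2+ replicates 4, 5 and 6 it was at 200, 476.5 and 198 CPM, so that 1 library raised the mean to 291 ± 160 CPM (n = 3). The log2 differences were -0.06 (SE 0.25), 0.42 (SE 0.32) and 0.37 (SE 0.30) in the 3 comparisons, with Ly6D+Gfra2+ set first against Ly6D+Gfra2- and then against Ly6D-Gfra2- in the last 2. Their edgeR adjusted p-values were 0.999, 0.613 and 0.610. Without Ly6D+Gfra2+ replicate 5 the last 2 became -0.13 and -0.18. That library also had the fewest genes with a count, 10837 against 11636 to 13969 in the others.

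Per kilobase of the matched transcripts, Cbfb amounted to a mean of 0.189 of the summed Runx genes in Ly6D-Gfra2-, 0.139 in Ly6D+Gfra2- and 0.255 in Ly6D+Gfra2+. With the longest coding transcripts the ratios were 0.284, 0.199 and 0.536. The Cbfb transcript was thus below the summed Runx transcripts in every library with either length, the highest ratio being 0.816 in Ly6D+Gfra2+ replicate 5.

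Of the ETO family genes, Cbfa2t3 had more counts than Cbfa2t2 in every library, and Runx1t1, the gene of ETO itself, was at 0 counts in 11 of the 13. Runx1t1 had 86 counts in the Ly6D-Gfra2- library labelled replicate 3 and 10 in Ly6D-Gfra2- replicate 5. Cbfa2t3 stood at 311, 383, 441, 364, 365 and 445 CPM in Ly6D-Gfra2- replicates 1 to 6, and at 644, 454, 501 and 567 CPM in Ly6D+Gfra2- replicates 1, 2, 5 and 6. Every Ly6D+Gfra2- library was above every Ly6D-Gfra2- library, a separation that 0.582% of all genes showed in that direction. The log2 difference of 0.49 (SE 0.24) did not pass the test (edgeR adjusted p = 0.999, unadjusted p = 0.0539). Without the Ly6D-Gfra2- library labelled replicate 3 it was 0.55 (edgeR adjusted p = 0.9996).

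In Ly6D+Gfra2+ the Cbfa2t3 libraries split, with 188 and 238 CPM in replicates 4 and 5 and 531 CPM in replicate 6. The first 2 lay below all 10 libraries of the other compartments. Against Ly6D+Gfra2- the log2 difference was -0.77 (SE 0.31, edgeR adjusted p = 0.300), and without Ly6D+Gfra2+ replicate 6 it was -1.35 (edgeR adjusted p = 0.0222). Against Ly6D-Gfra2- it was -0.28 (SE 0.29, edgeR adjusted p = 0.725), and without replicate 6 it was -0.86 (edgeR adjusted p = 0.0585). Leaving out Ly6D+Gfra2+ replicate 4 instead brought these differences to -0.50 (edgeR adjusted p = 0.427) and -0.011 (edgeR adjusted p = 0.992). Dendritic markers differed in direction in replicate 6, which had the highest Cox6a2 of its group (96.6 CPM against 20.8 and 27.8 CPM) and the lowest Siglech (9.10 CPM against 16.6 and 29.6 CPM). It also held the Col1a2 and Cxcl12 given above, and Cdh5 at 13.4 CPM. The part of these transcripts in the Cbfa2t3 level was not tested.

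Cbfa2t2 had the lowest mean per kilobase of the set in each compartment, 11.9, 20.01 and 12.3 CPM per kilobase, and varied most in Ly6D+Gfra2-. In Ly6D+Gfra2- replicates 1, 2, 5 and 6 it was at 268, 89.3, 91.5 and 37.5 CPM, in Ly6D-Gfra2- it ran from 49.4 to 108 CPM with a median of 63.0 CPM, and in Ly6D+Gfra2+ it was at 74.2, 91.3 and 59.5 CPM. The log2 differences were 0.61 (SE 0.41) between Ly6D+Gfra2- and Ly6D-Gfra2-, -0.28 (SE 0.55) between Ly6D+Gfra2+ and Ly6D+Gfra2-, and 0.33 (SE 0.47) between Ly6D+Gfra2+ and Ly6D-Gfra2-. Their edgeR adjusted p-values were 0.999, 0.879 and 0.818. Within prefix T the first became -0.15 and the second 0.21. Without Ly6D+Gfra2- replicate 1, the library at 268 CPM, they were 0.026 and 0.11, with 0.14 for the third, and without Ly6D+Gfra2- replicate 6 they were 0.96, -0.76 and 0.20. The log2 ratio of Cbfa2t3 to Cbfa2t2 was 2.46 ± 0.56 (n = 6) in Ly6D-Gfra2-, 2.49 ± 1.09 (n = 4) in Ly6D+Gfra2- and 1.96 ± 1.04 (n = 3) in Ly6D+Gfra2+. Between the first 2 it differed by 0.03 (exact permutation p = 0.95).

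Counted together, 0 of the 6 genes passed the edgeR test between Ly6D+Gfra2- and Ly6D-Gfra2-, where 0% of the 12722 genes did. Runx2 alone had an unadjusted p under 0.05, a level reached by 4.71% of all genes, and its values in these libraries also entered the choice of genes. DESeq2 called 0 of the 6 and 0.363% of all genes. Of the 5 genes other than Runx2, 0 passed edgeR between Ly6D+Gfra2+ and Ly6D+Gfra2-, against 0.409% of all genes. Of these 5, Cbfa2t3 had an unadjusted p under 0.05, as did 13.2% of all genes, and DESeq2 called 0 of them and 5.34% of all genes. The same 5 gave 0 edgeR calls between Ly6D+Gfra2+ and Ly6D-Gfra2-, against 1.39% of all genes. Runx1 had an unadjusted p under 0.05, as did 15.4% of all genes, and was the 1 of the 5 that DESeq2 called, beside 7.18% of all genes. A count of 1 in 5 is near that unadjusted share.

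The partners through which Runx proteins activate or repress their targets gave few calls. Of 10 coactivators, Smarca4, the ATPase of the BAF chromatin remodelling complex, rose in Ly6D+Gfra2+ against Ly6D-Gfra2-, the 1 gene of its list that edgeR called. Of all genes 0.928% were called higher there and 0.464% lower. Smarca4 was at 672, 697 and 1351 CPM in Ly6D+Gfra2+ and at 367 to 523 CPM in Ly6D-Gfra2-, a log2 difference of 1.07 (SE 0.24, edgeR adjusted p = 0.0336). Of 9 corepressors, Sin3a, a scaffold for histone deacetylases, was called in the same comparison, with 523, 1067 and 521 CPM against 263 to 425 CPM and a log2 difference of 1.05 (SE 0.25, edgeR adjusted p = 0.0476). Both calls depended on single libraries. Smarca4 stayed called in 6 of the 13 fits that each left out 1 library, and Sin3a in 3 of 13, those without Ly6D+Gfra2- replicate 1 and Ly6D+Gfra2+ replicates 4 and 6. The Smarca4 call was lost without Ly6D-Gfra2- replicate 1, 4, 5 or 6, Ly6D+Gfra2- replicate 2 or 6, or Ly6D+Gfra2+ replicate 6. Without Ly6D+Gfra2+ replicate 6 the Smarca4 difference was 0.66 (edgeR adjusted p = 0.0902), and without Ly6D+Gfra2+ replicate 5 that of Sin3a was 0.62 (edgeR adjusted p = 0.198). With the Ly6D-Gfra2- library labelled replicate 3 left out, the edgeR adjusted p-values were 0.0409 for Smarca4 and 0.0669 for Sin3a.

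The median log2 difference of the coactivators in that comparison was 0.19, and that of the corepressors 0.10, beside 0.01 over all genes. DESeq2 called Ets1 and Smarca4 among the coactivators there, and Sin3a and Tle2 among the corepressors, beside 7.18% of all genes. For Ly6D+Gfra2+ against Ly6D+Gfra2- edgeR called 0 coactivators and 0 corepressors, with medians of 0.41 and 0.09 beside 0.03 over all genes. Unadjusted p was under 0.05 for 3 genes of each list and for 13.2% of all genes. DESeq2 called Smarca4 among the coactivators and Tle2, a Groucho corepressor, among the corepressors, beside 5.34% of all genes. Tle2 averaged 1.92 ± 1.71 CPM in Ly6D+Gfra2+ (n = 3) and 16.5 ± 8.36 CPM in Ly6D+Gfra2- (n = 4). The lymphoid factor Ets1, which binds DNA together with Runx1, averaged 305 ± 206 CPM and 130 ± 37.6 CPM in these compartments, with an edgeR adjusted p of 0.193. Between the compartments that lack Gfra2, 0 genes of either list were called by edgeR or DESeq2 and 0 had an unadjusted p under 0.05, and the medians were 0.12 and 0.03 beside -0.01 over all genes. The lowest p-values there belonged to Prmt1 and Brpf1, and to Tle1 and Sin3a.

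Of 20 partners of the ETO family proteins, 18 were tested, and Lmo2, the bridging protein of the Tal1 and Ldb1 complex, fell in Ly6D+Gfra2+ against Ly6D-Gfra2-. Lmo2 was at 84.4, 70.1 and 41.0 CPM in Ly6D+Gfra2+ and at 142 to 260 CPM in Ly6D-Gfra2-. The log2 difference was -1.77 (SE 0.38, edgeR adjusted p = 0.0305), and -1.79 (edgeR adjusted p = 0.0386) when the Ly6D-Gfra2- library labelled replicate 3 was left out. The call held in 7 of 13 fits with 1 library left out and was lost without Ly6D-Gfra2- replicate 1, 4, 5 or 6 or without Ly6D+Gfra2+ replicate 5 or 6. Sin3a, which this list also holds, was the other gene that edgeR called, beside 1.39% of all genes. DESeq2 called Gata2, Lmo2 and Sin3a, beside 7.18% of all genes. Gata2 was at 0 in Ly6D+Gfra2+ and was kept by the filter through the other compartments, so its DESeq2 call lends no support. In Ly6D+Gfra2- Lmo2 averaged 97.1 ± 42.9 CPM (n = 4) against 194 ± 45.7 CPM in Ly6D-Gfra2- (n = 6) with an edgeR adjusted p of 0.807. Zbtb16, a lymphoid zinc finger factor, was kept by the filter through Ly6D-Gfra2- and is given by its levels. It averaged 2.92 ± 3.18 CPM there and was at 0 in Ly6D+Gfra2- and Ly6D+Gfra2+. The list's medians were -0.01, -0.11 and -0.03 in the 3 comparisons, beside -0.01, 0.03 and 0.01 over all genes. In the 2 comparisons where edgeR called none, 3 and 5 genes had an unadjusted p under 0.05, beside 4.71% and 13.2% of all genes. DESeq2 called Zbtb16 in the first and 0 genes in the second, beside 0.363% and 5.34% of all genes. Zbtb16 is also among the 3, and since the filter kept it through the group where it was high, its p-values lend no support.

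The E protein Tcf4, a partner of the ETO family that also directs plasmacytoid dendritic cells, was at 368, 406 and 463 CPM in Ly6D+Gfra2+ and at 553 to 793 CPM in Ly6D+Gfra2-. These groups did not overlap, as was the case in that direction for 5.71% of all genes. The log2 difference of -0.71 (SE 0.21) did not pass the test (edgeR adjusted p = 0.169).

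Among 26 genes known as Runx targets in blood cells, 25 were in the files and 17 were tested, and 3 of the B lineage rose in Ly6D+Gfra2+ against Ly6D-Gfra2-. Against Ly6D-Gfra2- edgeR called Ebf1, Cd79a and Blk higher and Mpo lower, 4 of 17. The list was chosen with earlier results of these data known, so this count is not independent of them. Of all genes 0.928% were called higher there and 0.464% lower. The list's median was 0.11 beside 0.01 over all genes. Ebf1, the factor that specifies the B lineage, was at 891, 876 and 754 CPM in Ly6D+Gfra2+ against 9.21 to 127 CPM in Ly6D-Gfra2-, with a log2 difference of 4.66 (SE 0.69, edgeR adjusted p = 0.00325). Cd79a, a signalling chain of the B cell receptor, was at 121, 84.6 and 254 CPM against 0.0445 to 1.02 CPM. Its log2 difference was 8.23 (SE 0.91, edgeR adjusted p = 0.000166). Cd79a had 37 counts in all of Ly6D-Gfra2- and was kept by the filter through the compartments with Ly6D, where it was high. Its p-values against Ly6D-Gfra2- therefore lend no support. Blk, a B lineage kinase, was at 116, 115 and 109 CPM against 3.97 to 55.6 CPM, with 3.46 (SE 0.67, edgeR adjusted p = 0.0193). Mpo, the myeloid enzyme myeloperoxidase, was at 97.8, 312 and 309 CPM against 432 to 1125 CPM, with -1.75 (SE 0.38, edgeR adjusted p = 0.0325).

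**Figure D5:**
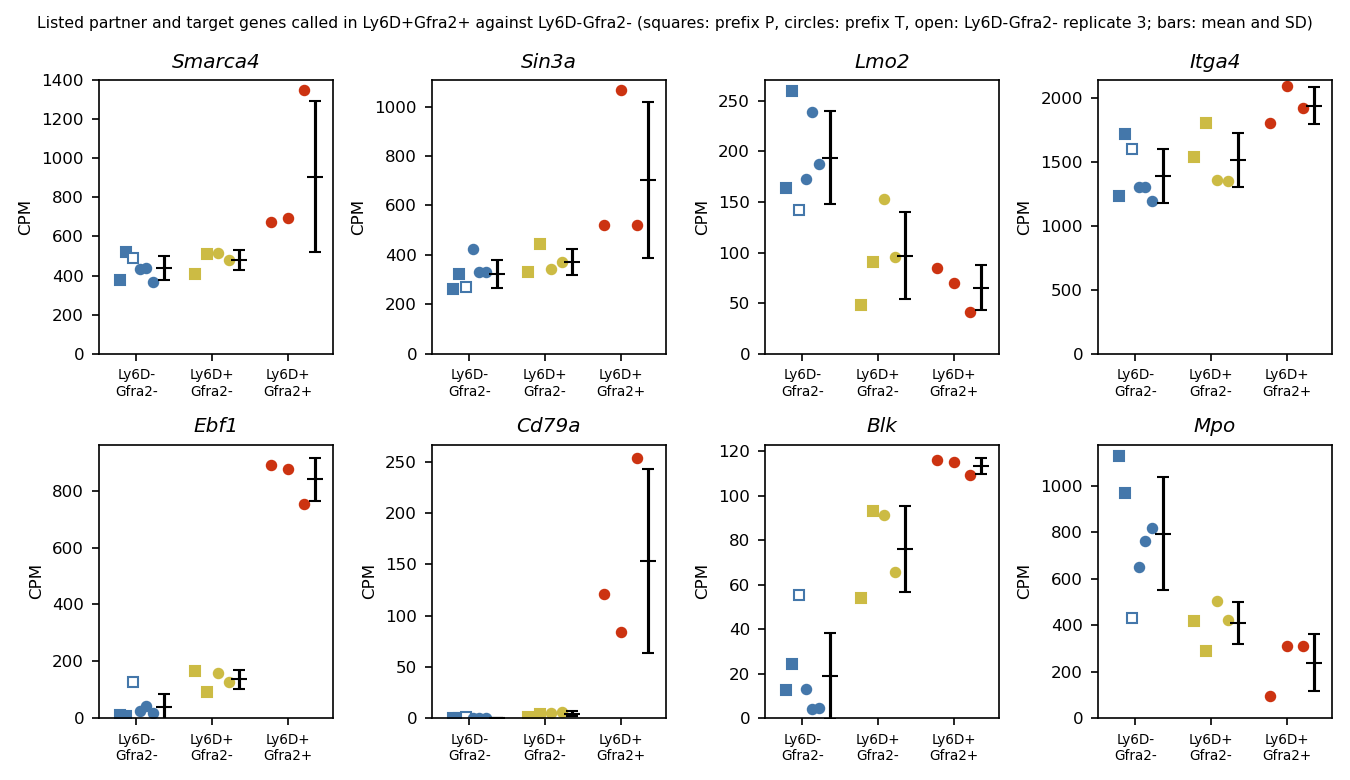
Levels in CPM, on linear axes from 0, of the 8 listed partner and target genes that edgeR called between Ly6D+Gfra2+ and Ly6D-Gfra2-, by library. Points and bars are as in the plot of the 6 Runx and cofactor genes. The open square, the Ly6D-Gfra2- library labelled replicate 3, has the highest Ebf1 and Blk and the lowest Lmo2 and Mpo of its group.

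The Ebf1 and Cd79a calls held in all 13 fits with 1 library left out, Blk in 10 and Mpo in 9. Both were lost without Ly6D-Gfra2- replicate 4, 5 or 6, and Mpo also without Ly6D+Gfra2- replicate 6. All 4 stayed called when the Ly6D-Gfra2- library labelled replicate 3 was left out, in a fit that called 1.12% of all genes. The limit on Cd79a given above holds for these fits too. DESeq2 called Blk, Cd79a, Cebpa, Mpo and Zbtb7b, beside 7.18% of all genes, and gave no adjusted p for Ebf1. Cebpa and Zbtb7b had lower means in Ly6D+Gfra2+, 0.0722 and 0 CPM against 4.93 and 2.14 CPM in Ly6D-Gfra2-. These 2 genes were kept by the filter through the compartments that lack Gfra2, so their DESeq2 calls lend no support. Against Ly6D+Gfra2- edgeR called Cd79a alone, with a log2 difference of 5.04 (SE 0.84, edgeR adjusted p = 0.0159), where 0.409% of all genes were called. The list's median was 0.34 beside 0.03 over all genes. That call held in 11 of 13 fits and was lost within prefix T (edgeR adjusted p = 0.0546) and without Ly6D+Gfra2- replicate 5 (edgeR adjusted p = 0.0634) or replicate 6 of that group. When the Ly6D-Gfra2- library labelled replicate 3 was left out, Ebf1 was called as well (2.18, edgeR adjusted p = 0.0269), in a fit that called 0.295% of all genes. Within prefix T alone the calls against Ly6D-Gfra2- of Smarca4, Sin3a, Lmo2, Mpo and Itga4 were also lost, with edgeR adjusted p-values from 0.0994 to 0.207. Summed transcripts of 8 committed B cell markers moved with these genes, at 293 to 386 CPM in Ly6D+Gfra2+ against 15.8 to 50.9 CPM in Ly6D-Gfra2- and 10.1 to 108 CPM in Ly6D+Gfra2-, with Ms4a1 at 0 throughout. Summed granulocyte and monocyte markers, Mpo among them, were at 223 to 440 CPM, 644 to 1414 CPM and 448 to 588 CPM in the same order. Their part in the levels of the target genes was not tested.

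In Ly6D+Gfra2- against Ly6D-Gfra2-, edgeR called 0 of the 17 blood targets and 0% of all genes. Of the 17, 5 had an unadjusted p under 0.05 (4.71% of all genes did), and DESeq2 called Blk and Cd79a (0.363% of all genes). The median was -0.15 beside -0.01 over all genes. The log2 differences were 3.19 (SE 0.67) for Cd79a and 2.42 (SE 0.54) for Blk, each with an edgeR adjusted p of 0.659. This outcome rested on the Ly6D-Gfra2- library labelled replicate 3. Without it edgeR called 3 of 17 higher in Ly6D+Gfra2-, against 0.127% of all genes in that fit. These were Ebf1 (2.885, edgeR adjusted p = 0.000719), Blk (2.79, edgeR adjusted p = 0.0313) and Cd79a (3.83, edgeR adjusted p = 0.0325). Cd79a was kept by the filter through the compartments with Ly6D, so its p-values here lend no support. The list was chosen with earlier results of these data known, so these counts are not independent of them.

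Genes that Runx2 drives in bone were low in most libraries, and Col1a2, which did not pass the filter, was high in the 2 libraries named above. Of 12, 3 passed the filter, and edgeR and DESeq2 called 0 of them in each comparison, where 0 had an unadjusted p under 0.05. Over all genes edgeR called 0%, 0.409% and 1.39% in the 3 comparisons, and DESeq2 called 0.363%, 5.34% and 7.18%. Unadjusted p was under 0.05 for 4.71%, 13.2% and 15.4% of all genes. In Ly6D-Gfra2-, Ly6D+Gfra2- and Ly6D+Gfra2+ the means were 3.204, 1.44 and 0.722 CPM for Spp1 (osteopontin), 0.557, 1.83 and 0.433 CPM for Alpl (alkaline phosphatase) and 8.81, 7.18 and 8.85 CPM for Col10a1, a collagen of growth cartilage. Dmp1, Ihh, Sp7 and Tnfrsf11b were at 0 in all 13 libraries. The medians over the 3 tested genes were -0.40, -1.27 and -0.63 in the 3 comparisons, beside -0.01, 0.03 and 0.01 over all genes. The last 2 medians are the differences of Spp1 (SE 1.97) and Col10a1 (SE 1.22), at the low levels given above.

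Genes of the plasmacytoid dendritic programme, the blood lineage in which Runx2 is known, gave few calls. Of 21 genes, 20 were tested. In Ly6D+Gfra2- against Ly6D-Gfra2-, edgeR called 0 of them and 0% of all genes. Of the 20, 5 had an unadjusted p under 0.05 (4.71% of all genes did), and DESeq2 called 0 (0.363% of all genes). The median was 0.19 beside -0.01 over all genes. Siglech had a log2 difference of 2.57 (SE 0.59, edgeR adjusted p = 0.659), and Cox6a2 one of 1.55 (SE 0.39, edgeR adjusted p = 0.807). Without the Ly6D-Gfra2- library labelled replicate 3, edgeR called Siglech (3.22, edgeR adjusted p = 0.000837), in a fit that called 0.127% of all genes. Spib, an Ets factor of plasmacytoid dendritic cells, was kept by the filter through Ly6D+Gfra2-, where it was at 271, 10.3, 44.2 and 28.6 CPM in replicates 1, 2, 5 and 6. It is given by its levels, which were 49.8 CPM in the Ly6D-Gfra2- library labelled replicate 3 and 0.119 to 1.49 CPM in the rest of that group.

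In Ly6D+Gfra2+ against Ly6D+Gfra2-, edgeR called 0 of the 20, and 9 had an unadjusted p under 0.05 (13.2% of all genes did). DESeq2 called Irf8 and Pacsin1 (5.34% of all genes), and the median was -0.35 beside 0.03 over all genes. Pacsin1 was kept by the filter through the compartments that lack Gfra2, so its DESeq2 call lends no support. Siglech had a log2 difference of -3.33 (SE 0.74, edgeR adjusted p = 0.0606). Spib had 2 counts in all of Ly6D+Gfra2+ and averaged 88.5 ± 122 CPM in Ly6D+Gfra2- (n = 4). The Ly6D-Gfra2- library labelled replicate 3 is in neither group of this comparison. It enters through the filter, the scaling, the shared spread, the prefix term and the adjustment of p. When it was left out Siglech was called, at -3.62 (edgeR adjusted p = 0.00297), in a fit that called 0.295% of all genes.

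Against Ly6D-Gfra2- the 1 gene of this list that edgeR called in Ly6D+Gfra2+ was Itga4, an integrin chain, which rose. It was at 1799, 2091 and 1923 CPM against 1191 to 1712 CPM, with a log2 difference of 0.62 (SE 0.14, edgeR adjusted p = 0.0386). The call held in 5 of 13 fits with 1 library left out and was lost without the Ly6D-Gfra2- library labelled replicate 3 (edgeR adjusted p = 0.05, just above the threshold), without replicate 4, 5 or 6 of that group, without replicate 2, 5 or 6 of Ly6D+Gfra2-, and also without Ly6D+Gfra2+ replicate 5. In that comparison the list's median was -0.29 beside 0.01 over all genes. There edgeR called 1.39% of all genes. DESeq2 called Itga4, Ccr9, Cxcr4 and Pacsin1 of the list and 7.18% of all genes. Pacsin1 was kept by the filter through the compartments that lack Gfra2, so its DESeq2 call lends no support. Ccr9 averaged 43.5 CPM in Ly6D+Gfra2+ against 72.9 CPM, Cxcr4, the receptor of Cxcl12, 271 against 161 CPM, and Pacsin1 0.0361 against 9.28 CPM.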

How the data were processed

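RNA sequencing of total RNA, extracted with the RNeasy micro kit of Qiagen and made into libraries with NuGEN Ovation kits, gave 13 libraries. The authors deposited raw counts per RefSeq identifier, per the file headers. The submitters' processing notes name FastQC, HISAT, TopHat, HOMER, DESeq and the mm10 build. Strand, annotation and treatment of reads with several matches are not given in the sources used here. Names of 23815 of 24072 identifiers came from the RefSeq table of GRCm38.p6, the assembly of mm10, and 144 from GENCODE; 113 had none. No 2 libraries shared more than 0.418% of gene counts.

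Counts were tested with edgeR 4.0.16 (quasi-likelihood, TMM, R 4.3.3) in 1 fit of all 13 libraries with group and prefix terms, checked on simulated data. Genes passed filterByExpr (minimum count 10, minimum total 15). Calls had an adjusted p (Benjamini-Hochberg over 12722 genes, two-sided) under 0.05. SE comes from the fit. Ratios used a pseudocount of 1. Alternatives were DESeq2 1.42.0, RLE size factors, no filter, no prefix term, a replicate block, each prefix alone and each library left out. Those chosen after seeing the data were the longest coding length and, with the Ly6D-Gfra2- library labelled replicate 3 left out, the prefix P fit and the list counts.

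The genes of the set and the lists were chosen with earlier results of these data known. Named genes were the 6 of the set, the 5 most like Runx2 among those averaging 5 CPM or more in 1 group (log2 CPM, prior count 2), and from each list and comparison the called genes or, with none called, the 2 with the smallest p. Tcf4, Ets1, Tle2 and list genes named at 0 or through DESeq2 include some chosen after their values were seen.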

Additional observations from a re-analysis of the deposited data

Results flagged for a closer look

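Among 18 sets of libraries checked for one that stands apart (the 6 genes and the 3 ratios, each in Ly6D-Gfra2- and in Ly6D+Gfra2-), Cbfb in Ly6D+Gfra2- replicate 6 was at 169.5 CPM, while the nearest library of its group was at 234 CPM and the highest at 246 CPM. The gap was 0.846 of the whole range of the group. Chance alone sets apart about 1 in 20 groups.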

How the results depend on the processing

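The number of genes called over the whole table moved with the settings. It was 0 between Ly6D+Gfra2- and Ly6D-Gfra2- in the fit reported, 54 with DESeq2, 9 with no filter on low counts, 1 within prefix T, and 0 to 16 with 1 library left out, the 16 without the library labelled Ly6D-Gfra2- replicate 3. Between Ly6D+Gfra2+ and Ly6D+Gfra2- it was 52, then 700 with DESeq2, 164 with no filter, 103 without the prefix term, 9 within prefix T and 12 to 184 with 1 library left out, the lowest without Ly6D+Gfra2- replicate 5 and the highest without Ly6D+Gfra2+ replicate 6. Between Ly6D+Gfra2+ and Ly6D-Gfra2- it was 177, then 940, 318, 62 within prefix T, and 49 to 372, the lowest without Ly6D-Gfra2- replicate 5 and the highest without Ly6D+Gfra2+ replicate 6. The cause was not tested. With a replicate block in place of the prefix the 3 counts were 8, 25 and 92, and 0 genes of the set were called. With that block the Runx2 difference between Ly6D+Gfra2- and Ly6D-Gfra2- was 0.81 (edgeR adjusted p = 0.299). Same-numbered libraries did not deviate together (r of -0.055 to 0.038). That check rests on few libraries per group and prefix and cannot exclude pairing. The fit reported does not pair samples.

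Called genes of the set moved from 0 to 1 with DESeq2 (Runx1, Ly6D+Gfra2+ against Ly6D-Gfra2-), and spanned 0 to 1 between Ly6D+Gfra2+ and Ly6D+Gfra2- with 1 library left out (Cbfa2t3, without Ly6D+Gfra2+ replicate 6). The ratio difference of Runx2 to Runx1 was -0.25 within prefix P. That of Cbfa2t3 to Cbfa2t2 was -0.63 there and ran from -0.33 to 0.40 with 1 library left out.

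Differences near 0 changed sign. Between Ly6D+Gfra2- and Ly6D-Gfra2-, Cbfb was 0.079 within prefix P, 0.16 there without the library labelled Ly6D-Gfra2- replicate 3, and -0.14 to 0.062 with 1 library left out; Cbfa2t2 was -0.15 and Sin3a -0.021 within prefix T; Brpf1 was -0.037 to 0.47 with 1 library left out. Between Ly6D+Gfra2+ and Ly6D+Gfra2-, Runx3 was -0.21 without the prefix term, -0.076 with the replicate block and -0.18 to 0.44 with 1 library left out. Cbfa2t2 was 0.21 within prefix T and -0.76 to 0.11 with 1 library left out, and Cbfb was -0.13 to 0.64. Against Ly6D-Gfra2-, Cbfb was -0.18 to 0.58. The depth gave every gene of the set at least 370 counts in every library.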
